A study of Mus musculus with 15 samples.

Results

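The genes described here are Rpl13a, Tbp and Nono, 3 of the 15 genes that a lncRNA and mRNA microarray names by a RefSeq messenger RNA identifier, each on 1 probe printed 20 times on every array. The array holds 60915 probes in all, of which 34985 were bright enough to be tested. All 3 probes were well above background on 15 of 15 arrays. Their products act at different steps of gene expression: RPL13A in translation, TBP in the start of transcription and NONO in the handling of nuclear RNA.

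RPL13A is a protein of the large ribosomal subunit and can also leave it to join a complex that represses the translation of certain inflammatory transcripts. TBP, the TATA-binding protein, is shared by the initiation complexes of each nuclear RNA polymerase and, within TFIID, marks where RNA polymerase II starts. NONO is a DNA- and RNA-binding protein that pairs with SFPQ or PSPC1, helps to build paraspeckles on the RNA Neat1, and takes part in splicing, transcription and DNA repair. Rpl13a and Tbp are often used as reference genes in quantitative PCR, which assumes that their levels hold steady between conditions.

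The study asked how ischaemic preconditioning changes RNA levels in mouse liver during ischaemia-reperfusion. All arrays carried bulk liver RNA of C57BL/6 mice under sodium pentobarbital anaesthesia. In the ischaemia-reperfusion group (I/R), a clip on the left lateral and median lobes stopped flow to 70% of the liver for 75 min, and reperfusion lasted 2 h. The preconditioned group (IPC) had 10 min of ischaemia and 10 min of reperfusion before the same 75 min and 2 h. The sham group had a laparotomy and handling of the hilum with no clamping. The labels used here give no age for the mice. Each group had 5 arrays. The design names 6 mice per group, 18 in all, and which mouse gave which array is unknown from the labels. The p-values therefore measure the spread between these arrays, which may in part be technical. In bulk liver, fewer cells of a type and less RNA per cell cannot be told apart. The identity of the tissue could not be checked against its markers, since none of the 31 marker genes listed for it was among the named probes (0 matched).

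The arrays lay on 2 slides, told apart by their scan times. Slide 2 held all 5 sham arrays with I/R 1 to 3, and slide 1 held all 5 IPC arrays with I/R 4 and I/R 5. No slide held both sham and IPC. On slide 2, sham 1 to 4 lay in row 1, and sham 5 and I/R 1 to 3 in row 2. On slide 1, I/R 4, I/R 5, IPC 1 and IPC 2 lay in row 1, and IPC 3 to 5 in row 2. A level here is the mean log2 signal of a probe's unflagged spots minus the 75th percentile of log2 signal on that array. That percentile was 8.23 to 8.31 on sham arrays, 8.08 to 8.68 on I/R arrays and 8.54 to 8.78 on IPC arrays. It did not overlap between slide 1 (8.48 to 8.78) and slide 2 (8.08 to 8.31), and every level has it subtracted.

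The stretches before the 3 gene starts are shown because these genes are compared for shared movement. They come from RefSeq promoter windows on GRCm38.p6, which matched 3 of 3 genes, and are read 5′ to 3′ along each gene. Capitals mark matches, on either strand, to 6 short motifs: the core of a TATA box (TATAAA), the CCAAT box (spelled as named), the GC box (GGGCGG), an ETS factor core (CGGAAG), a YY1 core (AAGATGG) and the core of a hypoxia response element (ACGTG). Only bases before the outermost annotated start of each gene are printed. For Nono that start lies upstream of the start on which its window is built, so only 159 bases are shown.
Rpl13a, chr7:45128746-45128995, minus strand: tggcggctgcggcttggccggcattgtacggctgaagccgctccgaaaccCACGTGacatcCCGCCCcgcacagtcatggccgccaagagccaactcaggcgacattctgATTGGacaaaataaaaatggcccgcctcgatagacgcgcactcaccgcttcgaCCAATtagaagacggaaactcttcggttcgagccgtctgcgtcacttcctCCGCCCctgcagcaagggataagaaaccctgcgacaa
Tbp, chr17:15499638-15499887, plus strand: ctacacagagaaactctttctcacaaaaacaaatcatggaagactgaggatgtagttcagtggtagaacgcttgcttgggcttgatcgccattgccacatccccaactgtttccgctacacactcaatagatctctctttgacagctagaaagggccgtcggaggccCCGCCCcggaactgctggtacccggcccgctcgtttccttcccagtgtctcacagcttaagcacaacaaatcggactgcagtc
Nono, chrX:101429401-101429559, plus strand: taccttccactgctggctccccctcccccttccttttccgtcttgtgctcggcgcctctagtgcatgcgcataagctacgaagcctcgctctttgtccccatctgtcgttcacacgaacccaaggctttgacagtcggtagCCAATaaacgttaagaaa

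The 3 windows, each 300 bases with 250 before the start and 50 after it, had little in common at the level of these letters. Distances are counted from that window start. The printed Nono stretch ends before it, so distances cannot be counted from the end of that stretch, and the Nono match at 36 bases is not printed. The TATA core was in none of the 3 windows, and 13.6% of all 32851 windows hold it. The CCAAT box was in the Rpl13a window at 140 bases (reverse strand) and 87 bases before the start, and in the Nono window at 109 and 36 bases before it. It was not in the Tbp window, and 37.4% of all windows hold it. The GC box was on the reverse strand of the Rpl13a window at 189 and 37 bases before the start, and of the Tbp window at 83 bases before it. It was absent from the Nono window, and 35.7% of all windows hold it. The hypoxia element core was in the Rpl13a window alone of the 3, as the palindrome CACGTG that matches on both strands from 200 bases before the start. It is in 19.6% of all windows. The ETS core (16.9% of all windows) was 15 bases after the Tbp start, and the YY1 core (6.34% of all windows) was 29 bases after the Rpl13a start. G and C made up 60.3% of the Rpl13a window, 53.3% of the Tbp window and 55.7% of the Nono window, beside a median of 52.7% over all windows. These matches are letters in a window, and no binding was measured.

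All 3 genes fell after ischaemia-reperfusion, by 12% to 14% of their sham signal, where 16.4% of the 34985 tested probes were called lower. The sham and I/R arrays of the 3 genes did not overlap. How often this holds among all tested probes is not given here. After preconditioning, Rpl13a and Nono were still lower than in sham, while Tbp overlapped with sham. No gene changed between I/R and IPC by the test across all probes. These calls depend on how arrays are scaled and on the slide, as given below with each gene.

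Rpl13a, the ribosomal protein gene, had levels of 4.17, 4.27, 4.23, 4.19 and 4.24 on sham arrays 1 to 5. Its levels were 4.07, 4.06, 4.07, 3.83 and 3.95 on I/R arrays 1 to 5, and 4.04, 4.07, 3.96, 4.14 and 4.10 on IPC arrays 1 to 5. Sham was highest and overlapped with neither other group, and the lowest value was I/R 4. The means were 4.22 ± 0.0368 in sham, 4.00 ± 0.109 in I/R and 4.06 ± 0.0668 in IPC (log2, SD, n = 5 each). Rpl13a fell by 0.22 from sham to I/R (SE 0.0553, 95% interval -0.34 to -0.10, limma adjusted p = 0.00716), a change of -14.3% in signal. It fell by 0.16 from sham to IPC (SE 0.0553, interval -0.28 to -0.04, limma adjusted p = 0.0428). IPC minus I/R was 0.06 (interval -0.06 to 0.18, limma adjusted p = 0.582). The IPC call did not last: it was lost when any of 10 of the 15 arrays was left out (IPC 1, 2, 3 or 5, I/R 5, or any sham array), with values of -0.17 to -0.13. With slide as a block the difference was 0.02 (limma adjusted p = 0.861), and over all alternatives the adjusted p of limma ran from 0.0146 to 0.979.

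Tbp, the gene for the TATA-binding protein, had levels of 0.94, 1.00, 0.98, 0.94 and 0.95 on sham arrays 1 to 5. Its levels were 0.79, 0.82, 0.92, 0.60 and 0.73 on the I/R arrays and 0.86, 0.88, 0.82, 0.96 and 0.92 on the IPC arrays. All I/R arrays were below all sham arrays, I/R 3 only narrowly, while IPC 4 lay within the sham range. The means were 0.96 ± 0.0263 in sham, 0.77 ± 0.120 in I/R and 0.89 ± 0.0526 in IPC (log2, SD, n = 5 each). Tbp fell by 0.19 from sham to I/R (SE 0.0556, interval -0.31 to -0.07, limma adjusted p = 0.0194), a change of -12.2% in signal. IPC minus I/R was 0.12 (interval -0.0038 to 0.23, limma adjusted p = 0.268), and IPC minus sham was -0.07 (interval -0.19 to 0.05, limma adjusted p = 0.369). The fall did not pass with slide and row as blocks (-0.12, limma adjusted p = 0.215). It did not pass with slide alone as a block either (-0.12, limma adjusted p = 0.0885), while IPC minus I/R then did (0.22, limma adjusted p = 0.0325). The same difference did not pass in the other fits that take the slide into account: it was 0.22 within slide 1 (limma adjusted p = 0.138), 0.17 with slide as a random block (0.110) and 0.22 with slide and row as blocks (0.108). Over all alternatives, the limma adjusted p ran from 0.00459 to 0.425 for the fall and from 9.5e-04 to 0.803 for IPC minus I/R.

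Nono, the gene of the paraspeckle protein, had levels of 3.56, 3.61, 3.62, 3.57 and 3.59 on sham arrays 1 to 5. Its levels were 3.41, 3.40, 3.50, 3.21 and 3.32 on the I/R arrays and 3.35, 3.39, 3.30, 3.45 and 3.40 on the IPC arrays. Sham was again the highest group with no overlap, and the IPC arrays lay inside the wider range of the I/R arrays. The means were 3.59 ± 0.0259 in sham, 3.37 ± 0.106 in I/R and 3.38 ± 0.0565 in IPC (log2, SD, n = 5 each). Nono fell by 0.22 from sham to I/R (SE 0.0527, interval -0.33 to -0.11, limma adjusted p = 0.00555), a change of -14.2% in signal. It fell by 0.21 from sham to IPC (SE 0.0527, interval -0.32 to -0.10, limma adjusted p = 0.00740). IPC minus I/R was 0.01 (interval -0.10 to 0.12, limma adjusted p = 0.949). With slide as a block, the difference from sham to IPC was -0.05 and no longer passed (limma adjusted p = 0.691, from 0.00216 to 0.850 over all alternatives).

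**Figure D1:**
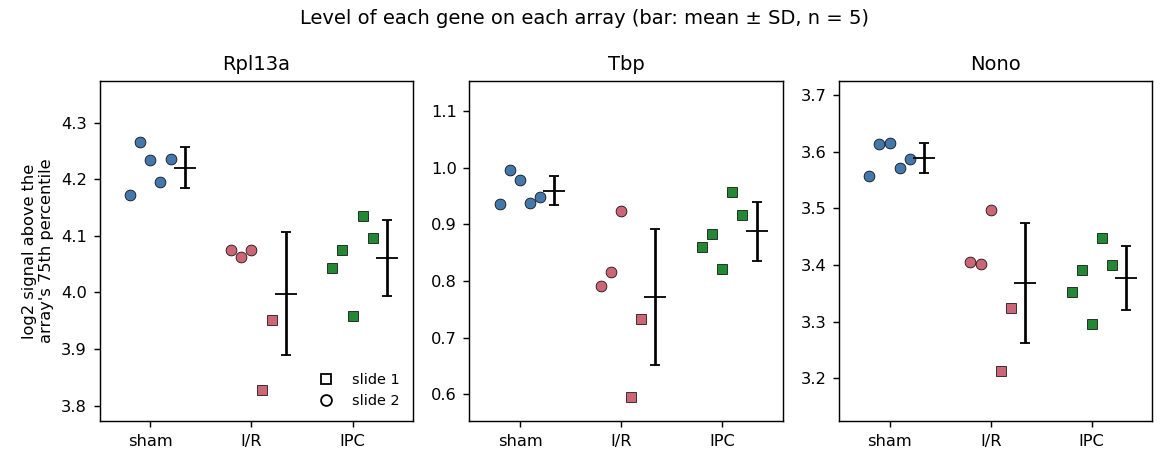
Level of Rpl13a, Tbp and Nono on each array (log2 signal above the 75th percentile of that array) by group, with squares for slide 1, circles for slide 2 and bars for the mean ± SD of 5 arrays. The sham arrays of each gene lie above its I/R arrays, and the lowest point of each panel is an I/R array on slide 1 (3.83 for Rpl13a, 0.60 for Tbp and 3.21 for Nono).

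These counts are to be read against the whole array. Of the 34985 probes tested, 16.4% were called lower in I/R than in sham, where 3 of 3 genes were called lower. The share called lower in IPC than in sham was 16.6%, where 2 of 3 genes were. Between IPC and I/R, 4.38% were called lower and 3.48% higher, and 0 of 3 genes were called. At an unadjusted p under 0.05 the limma count for IPC against I/R was also 0 of 3, beside 7005 of the 34985 tested probes, and the lowest unadjusted p of the 3 was 0.0567 for Tbp. The balance of calls between IPC and I/R depends on the setting: 1218 probes were higher and 1532 lower here, against 324 and 1073 with median scaling, 8952 and 239 without scaling, and 1560 and 989 with slide as a block. The median difference of all tested probes was -0.03 for I/R minus sham, 0.01 for IPC minus I/R and -0.01 for IPC minus sham. In I/R minus sham, 24.4% of tested probes had a lower value than Rpl13a, 28.3% a lower value than Tbp and 24.7% a lower value than Nono. The 3 comparisons share arrays, so their calls are not independent.

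The direction of the fall after ischaemia-reperfusion was shared by every spot position. I/R minus sham was below 0 at 20 of 20 spot positions for each gene, from -0.27 to -0.19 for Rpl13a, -0.26 to -0.11 for Tbp and -0.29 to -0.16 for Nono. IPC minus I/R was below 0 at 0 of 20 positions for Rpl13a, 0 of 20 for Tbp and 6 of 20 for Nono. IPC minus sham was below 0 at 20 of 20 positions for Rpl13a, 19 of 20 for Tbp and 20 of 20 for Nono. The spots of 1 array share its RNA and are no replicates of a group. The median SD among the spots of an array was 0.0374 for Rpl13a, 0.0560 for Tbp and 0.0445 for Nono, and 16, 14 and 11 of 300 spots were flagged and left out.

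The direction of a level depends on the scaling. The signals before any scaling averaged 12.48 in sham, 12.37 in I/R and 12.69 in IPC for Rpl13a (log2). For Tbp they averaged 9.22, 9.14 and 9.51, and for Nono 11.85, 11.74 and 12.005, in the same order. Without scaling, IPC minus sham was thus above 0 for all 3 genes, at 0.21 for Rpl13a, 0.30 for Tbp and 0.16 for Nono, and the median of all tested probes was 0.36. All 3 then passed the threshold, in the direction opposite to that with scaling (limma adjusted p = 0.0156, 0.00114 and 0.0494). Of the 34985 tested probes, 16872 were then called higher and 528 lower. Without scaling, IPC minus I/R passed too, above 0 as with scaling, at 0.32, 0.37 and 0.27 (limma adjusted p = 0.00345, 9.5e-04 and 0.00771). In that comparison, 8952 probes were called higher and 239 lower, and the median of all tested probes was 0.27. Relative to the median of all tested probes, IPC minus sham was -0.14, -0.06 and -0.20 in the same order, and IPC minus I/R was 0.05, 0.10 and -0.0017. These relative values are the same as with scaling by the 75th percentile, since such a scaling moves all probes of an array alike. I/R minus sham stayed below 0 without scaling but was not called for any of the 3. Under quantile normalization, I/R minus sham was -0.12 for Rpl13a, -0.16 for Tbp and -0.14 for Nono, and remained past the threshold.

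**Figure D2:**
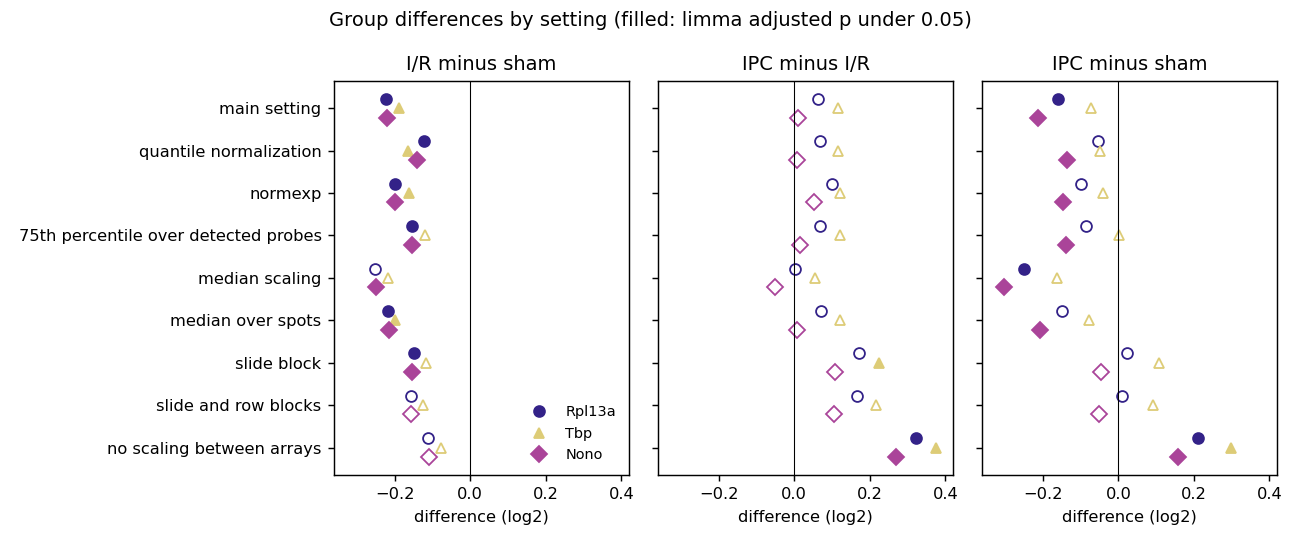
Group differences (log2) of the 3 genes under 9 settings, as circles for Rpl13a, triangles for Tbp and diamonds for Nono, filled where the limma adjusted p was under 0.05. I/R minus sham is below 0 in every setting drawn, while IPC minus sham lies above 0 for Rpl13a (0.02) and Tbp (0.11) with slide as a block and for all 3 genes without scaling (0.16 to 0.30).

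The ratio of a pair of genes on the same array does not depend on any scaling that shifts all probes of the array alike, so it was compared between groups by exact permutation of arrays. The size of such a ratio has no meaning across probes, and only its change between arrays is read here. The ratio of Tbp to Nono separated all 3 groups in the main setting, though its step from sham to I/R did not hold under every setting, as given below. How many other pairs of probes separate the groups is not given here. Tbp minus Nono was lowest in sham, higher in I/R and highest in IPC, and no group overlapped another.

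Tbp minus Nono was -2.62, -2.62, -2.64, -2.63 and -2.64 on sham arrays 1 to 5. It was -2.61, -2.59, -2.57, -2.62 and -2.59 on the I/R arrays, and -2.49, -2.51, -2.48, -2.49 and -2.48 on the IPC arrays. The IPC arrays stood clear of the other 10, whereas I/R 4 (-2.617) and sham 2 (-2.618) nearly met. The means were -2.63 ± 0.00972 in sham, -2.60 ± 0.0183 in I/R and -2.49 ± 0.0122 in IPC (log2, SD, n = 5 each).

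The ratio of Tbp to Nono rose by 0.033 from sham to I/R (SE 0.00926), by 0.106 from I/R to IPC (SE 0.00983) and by 0.139 from sham to IPC (SE 0.00697). Each had an exact two-sided permutation p of 0.00794, the smallest that 252 arrangements of 5 against 5 arrays can give. Each was 0.0143 after Benjamini-Hochberg adjustment over the 9 ratio tests (exact permutation). Within slide 2, I/R 1 to 3 exceeded the sham arrays by 0.038 with no overlap (exact permutation p = 0.0179, the smallest of 56 arrangements). Group and row nearly coincided on that slide. In its row 2 alone, I/R minus sham was 0.047 (3 arrays against 1, no test). Within slide 1, the IPC arrays exceeded I/R 4 and I/R 5 by 0.114 with no overlap (exact permutation p = 0.0476, the smallest of 21 arrangements). Adjusted over the 6 within-slide tests, both came to 0.0714 (exact permutation).

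The step from sham to I/R in this ratio was the less secure of the steps. It was -0.023 under quantile normalization, which reshapes signals by rank (exact permutation, adjusted p = 0.357), and 0.016 with the median over spots in place of the mean (adjusted p = 0.153). It also missed the threshold without sham 3, sham 4 or sham 5, each time with an adjusted p of 0.0595 (exact permutation), at values of 0.031 to 0.032. Over all alternatives its adjusted p ran from 0.0119 to 0.357 (exact permutation). The steps to IPC kept their sign under every setting tried, from 0.070 to 0.115 for IPC minus I/R and from 0.086 to 0.152 for IPC minus sham. In the 1 row of slide 1 that held both groups, IPC minus I/R was 0.103 (2 arrays against 2, no test).

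Rpl13a minus Tbp was 3.24, 3.27, 3.26, 3.26 and 3.29 on sham arrays, 3.28, 3.25, 3.15, 3.23 and 3.22 on I/R arrays, and 3.18, 3.19, 3.14, 3.18 and 3.18 on IPC arrays. The sham and IPC arrays did not overlap, and I/R 3 lay among the IPC arrays. The ratio fell by 0.087 from sham to IPC (SE 0.0127, exact permutation p = 0.00794, adjusted p = 0.0143). I/R minus sham was -0.035 (SE 0.0231, adjusted p = 0.188) and IPC minus I/R was -0.052 (SE 0.0235, adjusted p = 0.0714), both by exact permutation. Single arrays decided these: without I/R 3, IPC minus I/R was -0.071 (exact permutation, adjusted p = 0.0119), and without I/R 1, I/R minus sham was -0.049 (adjusted p = 0.0306, exact permutation). Under quantile normalization the difference from sham to IPC was -0.0057 (exact permutation, adjusted p = 0.683).

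Rpl13a minus Nono was 0.62, 0.65, 0.62, 0.62 and 0.65 on sham arrays, 0.67, 0.66, 0.58, 0.61 and 0.63 on I/R arrays, and 0.69, 0.68, 0.66, 0.69 and 0.70 on IPC arrays. The I/R arrays spread across the whole sham range and up to the lowest IPC arrays. The ratio rose by 0.053 from sham to IPC with no overlap (SE 0.00974, exact permutation p = 0.00794, adjusted p = 0.0143). It rose by 0.054 from I/R to IPC, where the groups overlapped (SE 0.0177, exact permutation p = 0.0159, adjusted p = 0.0238). That last call was lost, at an adjusted p of 0.0595 (exact permutation), without any of IPC 1, IPC 2, IPC 4 or IPC 5, with values of 0.051 to 0.054. I/R minus sham was -0.0016 (SE 0.0184, exact permutation p = 0.952).

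**Figure D3:**
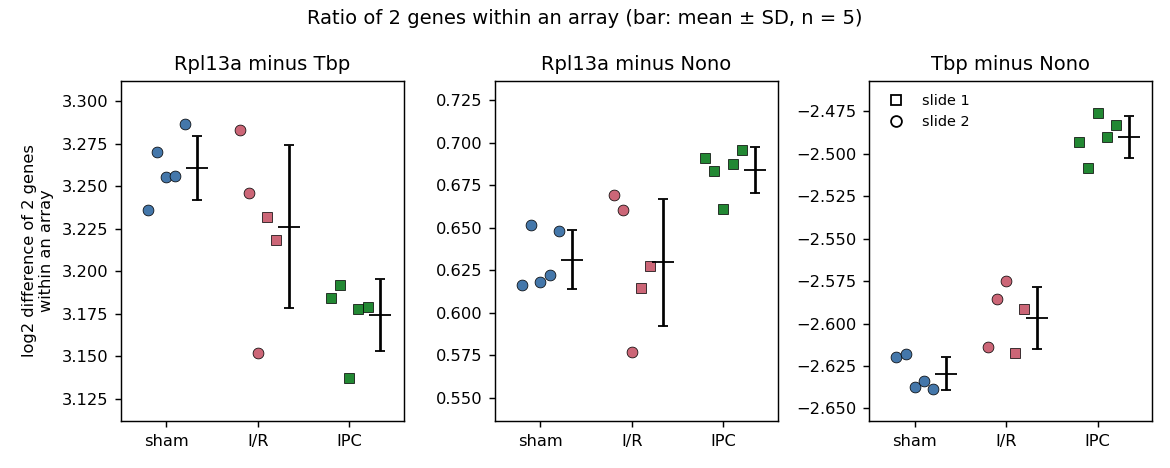
Log2 ratio of each pair of genes within an array by group, with squares for slide 1, circles for slide 2 and bars for the mean ± SD of 5 arrays. In the panel of Tbp minus Nono, the IPC arrays lie between -2.51 and -2.48 and all others between -2.64 and -2.57. In the panel of Rpl13a minus Tbp, the IPC arrays lie below the sham arrays.

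Within the groups, the 3 genes moved together from array to array, and some other named genes moved with them, as given below. Deviations of each array from the mean of its group had a Pearson's r of 0.912 for Rpl13a and Tbp (Spearman's rho 0.918), 0.946 for Rpl13a and Nono (rho 0.954) and 0.986 for Tbp and Nono (rho 0.957), over 15 arrays. In 100000 permutations of arrays within groups, the adjusted two-sided p of r was 2e-05 for each of the 3 pairs, and that of rho was 0.00011, 6e-05 and 6e-05 in the same order. The unadjusted p of Rpl13a and Tbp, 1e-05, is the smallest these permutations can give. All 3 levels of an array have the same percentile subtracted, which the permutations do not take into account. Their p-values therefore do not separate movement of the genes from movement of the whole array. The I/R arrays lay on both slides, and for each gene their deviations were positive on slide 2 and negative on slide 1. Permutation within groups does not take this into account either. With deviations taken within group and slide, r was 0.806, 0.879 and 0.969 in the same order (permutation, adjusted p = 0.00042, 0.000135 and 0.000135). Leaving out the 2 arrays farthest from the median of the gene on the x axis gave r = 0.781 and 0.848 (I/R 4 and IPC 3 left out) for the pairs with Rpl13a. For Tbp and Nono it gave 0.964 (I/R 4 and I/R 3 left out). On slide 1 alone, r was 0.965, 0.993 and 0.977 over 7 arrays in the order above. On slide 2 alone, over 8 arrays, it was 0.960 for Tbp and Nono (exact permutation, adjusted p = 0.0292). There it was 0.447 for Rpl13a and Tbp and 0.561 for Rpl13a and Nono, neither past the threshold (exact permutation, adjusted p = 0.0542 for both).

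The spread of the ratios shows the same in log2 units. The SD within groups was 0.0766 for Rpl13a, 0.0772 for Tbp and 0.0712 for Nono, but 0.0139 for Tbp minus Nono, 0.0250 for Rpl13a minus Nono and 0.0323 for Rpl13a minus Tbp. Over all 15 arrays, regardless of group, the SD was 0.120 for Rpl13a, 0.107 for Tbp and 0.124 for Nono. Among the 15 named genes these ranked 7, 6 and 9 from the steadiest, and the median SD of all tested probes was 0.225. The share of tested probes with a lower SD was 14.1%, 9.67% and 15.9% in the same order.

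**Figure D4:**
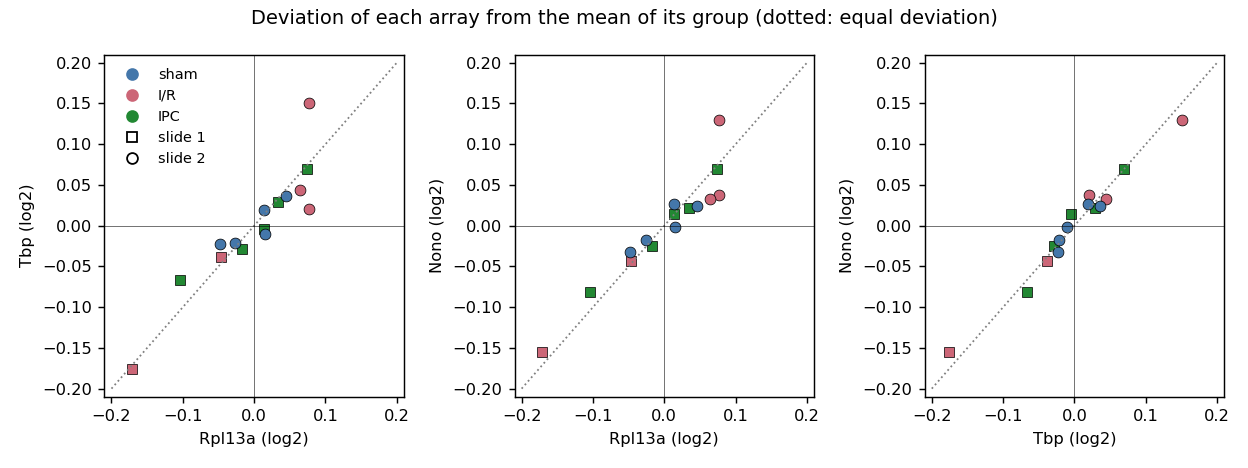
Deviation of each array from the mean of its group (log2) for each pair of genes, with colours for the groups, squares for slide 1 and circles for slide 2, and the dotted line where both genes deviate equally. The points of Tbp and Nono follow the line closely (r = 0.986), and I/R 4 and I/R 3 are the ends of that panel.

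The deviations also followed the percentile that was subtracted. Over 15 arrays, the deviation of the 75th percentile had r = -0.901 with that of Rpl13a, -0.974 with that of Tbp and -0.970 with that of Nono, given as a description. Since a level has this percentile subtracted, a negative r is partly built in. The SD within groups was 0.145 for the percentile. Before scaling it was 0.0828 for Rpl13a, 0.0718 for Tbp and 0.0777 for Nono. Without scaling, r was 0.923 for Rpl13a and Tbp, 0.954 for Rpl13a and Nono and 0.986 for Tbp and Nono. The part of array brightness in the shared movement was not tested. Among the 34984 other tested probes, 0 had a higher r with Tbp than Nono had, and 1 had a higher r with Nono than Tbp had, while the median r over those probes was 0.08 with each. With Rpl13a, 515 probes had a higher r than Tbp and 101 a higher r than Nono. The 3 genes are means over up to 20 spots and so carry less spot noise than most probes.

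Of the other named genes, those most like Rpl13a in level over 15 arrays were Tuba1b (r = 0.971), Nono (r = 0.960) and Tbp (r = 0.919), and least like it was Actb (r = -0.774). Tuba1b encodes an alpha tubulin and Actb the cytoplasmic beta actin. Most like Tbp were Hsp90ab1, the gene of a cytosolic chaperone (r = 0.952), Rpl13a (r = 0.919) and Tuba1b (r = 0.874), and least like it was Actb (r = -0.630). Most like Nono were Tuba1b (r = 0.969), Rpl13a (r = 0.960) and Tbp (r = 0.863), and least like it was Actb (r = -0.824). Levels include the differences between groups. For deviations within groups, the 14 other genes split into 7 with r of 0.875 to 0.986 with Tbp and 7 with r of -0.60 to 0.373. The same split for Rpl13a was 0.878 to 0.977 against -0.76 to 0.368, and for Nono 0.919 to 0.986 against -0.64 to 0.390. The higher 7 include the other members, but the movement was not particular to the 3 genes. Rpl13a followed Tuba1b (r = 0.977) and Hsp90ab1 (r = 0.961) more closely than Nono (r = 0.946) or Tbp (r = 0.912). Of the 14 other genes, Nono had the highest r with Tbp, and Tbp the highest with Nono (0.986). These values are a description, and the arrays share the scaling.

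**Figure D5:**
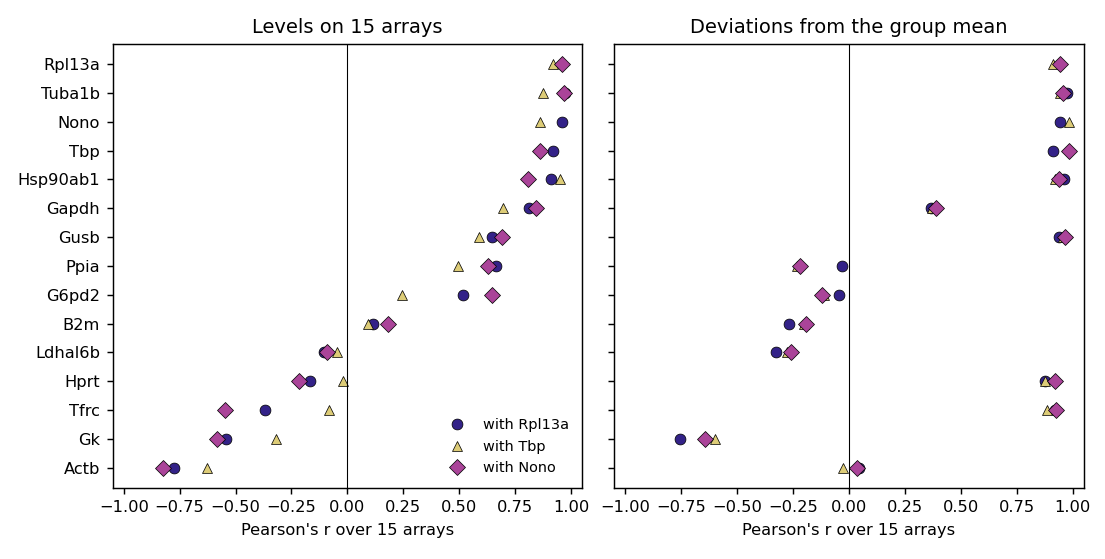
Pearson's r over 15 arrays of each named gene with Rpl13a (circles), Tbp (triangles) and Nono (diamonds), for levels on the left and for deviations from the group mean on the right. For levels, Actb is the lowest with all 3 genes (-0.63 to -0.82). For deviations, 7 of 14 other genes lie above 0.87 and the rest below 0.40.

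A measure of the ends of a transcript differed between groups, in opposite directions for the controls Mouse GAPDH and Mouse PGK1. In the order sham, I/R and IPC, its median was 0.95, 0.67 and 0.57 for Mouse GAPDH. For Mouse PGK1 it was 7.61, 7.70 and 7.87. On the control spots of Mouse GAPDH, log2 of the 3′ over the 5′ signal was 0.80 to 0.97 in sham, 0.43 to 0.70 in I/R and 0.51 to 0.65 in IPC, so that sham overlapped with neither other group. On those of Mouse PGK1 it was 7.51 to 7.65 in sham, 7.51 to 7.92 in I/R and 7.77 to 7.94 in IPC, where IPC did not overlap with sham. Their part in the differences of Rpl13a, Tbp and Nono was not tested. Where the 3 probes lie along their transcripts is not used here.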

How the data were processed

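Deposited spot intensity values, one-colour Cy3, come from Agilent Feature Extraction 11.0.1.1 with an mm9 grid, per the file headers; its processed signal is already background-subtracted and was used as deposited. The labels' protocols describe random-primed labelling of Trizol-extracted total RNA. Levels are log2 processed signal minus the 75th percentile over non-control spots of the array, averaged over unflagged spots. Genes were named by RefSeq identifiers (15 of 15 matched). Probes well above background on at least 5 arrays were fitted in limma 3.58.1 (R 4.3.3) with 3 group means on 15 arrays, Benjamini-Hochberg adjusted over 34985 probes, and called at an adjusted p of 0.05. Ratios were compared by exact two-sided permutation, and correlations by 100000 within-group permutations (Python 3.11.15). The methods were tested on simulated data.

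The named genes are the 3 members and, for each, the 3 other named genes with the highest and the 1 with the lowest r of levels. The members and lists were chosen with earlier results of these data known. Lists of 77 ribosomal protein genes, 30 TBP partners, 17 NONO partners and 31 cell type markers matched 0 named probes and gave no result. Of 30 pairs of arrays within groups, 0 differed by less than spot noise. Alternatives covered scaling, background correction (normexp), filter, spot averaging, slide, array row, replicate number and each array left out. The number of arrays limits the precision.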

Additional observations from a re-analysis of the deposited data

Results flagged for a closer look

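Rpl13a minus Tbp on IPC 3 was 3.14, the lowest of the 5 IPC arrays, with the nearest of the others at 3.18. Its gap to that array is 0.744 of the range of the group, above the critical value for 5 arrays. It was the only such case among 18 sets of 5 arrays looked at (the 3 genes and 3 ratios in 3 groups), and chance flags about 1 in 20. Without IPC 3, the ratio still fell from sham to IPC.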

How the results depend on the processing

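Every value here leaves its cause untested: the cause was not tested for any change below, apart from fewer arrays or probes where a setting removes them. All values are log2 differences unless said otherwise, in the order Rpl13a, Tbp, Nono where 3 are given. No scaling, the row of the slide, the mean within 1 row and the sum of within-slide differences were chosen after seeing the data.

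I/R minus sham kept its sign under all alternatives for the 3 genes, at -0.25 to -0.11 for Rpl13a, -0.23 to -0.077 for Tbp and -0.25 to -0.11 for Nono. The call was lost without scaling (-0.11, -0.077, -0.11) and with blocks for slide and row (-0.16, -0.12, -0.16). Median scaling ended it for Rpl13a (-0.25) and Tbp (-0.22). For Tbp it was lost too with the percentile over detected probes (-0.12), no filter (-0.19), the arrays of the 2 groups alone (-0.19), slide as a block (-0.12) and within 1 slide (-0.12). IPC minus I/R passed the threshold without scaling (0.32, 0.37, 0.27) and, for Tbp, with slide as a block (0.22); for Nono it was -0.052 with median scaling.

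IPC minus sham reversed for all 3 genes without scaling (0.21, 0.30, 0.16). For Rpl13a it also reversed with slide as a block (0.022) and with both blocks (0.0087). The call for Rpl13a was lost with quantile normalization (-0.054), normexp (-0.10), the percentile over detected probes (-0.086), no filter (-0.16), the median over spots (-0.15) and slide as a random block (-0.065). For Tbp the value moved to 0.00071 with the percentile over detected probes, 0.11 with slide as a block, 0.021 as a random block and 0.092 with slide and row. For Nono the call was lost in the last 3 of these, at -0.045, -0.13 and -0.052.

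Median scaling moved the median of all probes in IPC minus sham to -0.10. Counts of probes called were 10841, 2750 and 10533 for I/R minus sham, IPC minus I/R and IPC minus sham. They came to 6779, 1266 and 1706 with slide and row as blocks. IPC minus I/R came to 1397 with median scaling, 1832 with no filter, 1804 with the arrays of the 2 groups, 888 within 1 slide and 9191 without scaling. IPC minus sham came to 17314 with no filter, 17400 without scaling and 6386 with slide as a random block. In I/R minus sham, 5095 were higher and 5746 lower, against 7191 and 4301 with the percentile over detected probes and 5843 and 1785 without scaling. In IPC minus sham the split was 4741 and 5792, against 6956 and 4243 with that percentile, 2620 and 7040 with median scaling and 16872 and 528 without scaling.

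Quantile normalization took Rpl13a minus Tbp to 0.042 in I/R minus sham and -0.0057 in IPC minus sham, and Tbp minus Nono to -0.023 in I/R minus sham. Rpl13a minus Nono in IPC minus I/R lost its call with normexp (0.048) and within 1 slide (0.063). Tbp minus Nono in I/R minus sham lost it with the median over spots (0.016) and within 1 slide (0.038), and in IPC minus I/R within 1 slide (0.114), where few arrangements exist. The sum of within-slide differences for Tbp minus Nono in IPC minus sham was 0.152. On slide 2 alone, the correlations with Rpl13a lost their calls (0.447 with Tbp, 0.561 with Nono).

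With each array left out in turn, Rpl13a in IPC minus sham ran from -0.18 to -0.13. Rpl13a minus Tbp ran from -0.049 to -0.016 in I/R minus sham and from -0.071 to -0.038 in IPC minus I/R. Rpl13a minus Nono in IPC minus I/R ran from 0.041 to 0.064, and Tbp minus Nono in I/R minus sham from 0.028 to 0.038.

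Same-numbered arrays did not consistently deviate together (r from -0.37 to 0.51). These values show no pairing by replicate number, but with 5 arrays per group they cannot exclude one. With the replicate number as a block, Rpl13a in IPC minus sham (-0.16) and Tbp in I/R minus sham (-0.19) lost their calls and 1734 probes were called in IPC minus I/R. The block for ratios cannot give an exact p under 0.0625, so it bears on no call: it left Rpl13a minus Tbp at -0.087 in IPC minus sham, Rpl13a minus Nono at 0.054 in IPC minus I/R and 0.053 in IPC minus sham, and Tbp minus Nono at 0.033, 0.106 and 0.139. An array correlated best with its own number in 2 of 5, 0 of 5 and 1 of 5 cases for sham with I/R, I/R with IPC and sham with IPC.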
